A study of Mus musculus with 3 samples.

Results

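The genes described here encode the adhesive junctions of the epidermis. They are 45 of the 24028 gene identifiers in the deposited table, chosen by symbol: 9 of adherens junctions, 16 of desmosomes, 14 of hemidesmosomes and cell-matrix contacts and 6 of tight junctions. Each of the 45 symbols matched an identifier. RNA came from skin papillomas, which are benign growths of the epidermis. They were induced in C57BL/6 mice by the mutagen DMBA and the tumour promoter TPA, which all groups received. Wild-type mice carried endogenous galectin-7, a lectin of stratified epithelia. Lgals7-/- mice lacked it, and Tg46 mice overexpressed it in keratinocytes from a transgene driven by the K14 promoter, which is active in the basal layer. The labels give no age. Each genotype is 1 library made from 3 pooled tumours, so no value below has an error between animals or tumours, no p-value is given, and each comparison is between 2 libraries.

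Adherens junctions join neighbouring cells through E-cadherin, whose cytoplasmic tail binds catenins that connect to actin. Desmosomes do the same for keratin filaments: desmogleins and desmocollins span the gap between cells, plakoglobin and plakophilins bind their tails, and desmoplakin ties them to keratin. Hemidesmosomes fasten the basal keratinocyte to the basement membrane through integrin alpha6 beta4, collagen XVII and the plakin proteins plectin and dystonin. Tight junctions, built from claudins, occludin and cytoplasmic scaffolds, seal the granular layer. Galectin-7 itself is a secreted and intracellular protein of these same stratified epithelia.

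The tight junction genes include some lowest and some highest in Lgals7-/-. The 250 bases before a start site of each of 4 of them are shown. A reader can thus see sequences that precede genes with unlike counts. Windows with more than a few annotated exon bases were not shown. Cgn (cingulin, a scaffold that binds actin and myosin) and Cldn1 (claudin-1, a barrier-forming strand protein of the epidermis) held the fewest counts in Lgals7-/-, whereas Cldn4 (claudin-4, another strand protein) and Ocln (occludin, a strand protein with several membrane passes) held the most there. The windows are from RefSeq on GRCm38.p6, all on the minus strand and printed 5′ to 3′ along the gene: chr3:94786483-94786732 for Cgn, chr16:26371840-26372089 for Cldn1, chr5:134946935-134947184 for Cldn4 and chr13:100552719-100552968 for Ocln. Capitals mark matches on either strand to CACCTG (an E-box of the kind bound by Snail and Zeb factors), AACCNGTT (Grainyhead-like factors) or TGANTCA (AP-1).
Cgn: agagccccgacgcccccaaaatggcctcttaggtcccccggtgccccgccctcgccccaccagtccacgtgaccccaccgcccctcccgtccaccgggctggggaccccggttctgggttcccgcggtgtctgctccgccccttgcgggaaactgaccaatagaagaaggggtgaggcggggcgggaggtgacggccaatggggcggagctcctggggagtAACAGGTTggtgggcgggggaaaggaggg
Cldn1: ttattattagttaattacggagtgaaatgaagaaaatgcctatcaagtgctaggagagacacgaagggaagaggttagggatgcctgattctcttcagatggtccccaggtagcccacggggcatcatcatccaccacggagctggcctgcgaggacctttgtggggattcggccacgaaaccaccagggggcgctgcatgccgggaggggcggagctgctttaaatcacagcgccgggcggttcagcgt
Cldn4: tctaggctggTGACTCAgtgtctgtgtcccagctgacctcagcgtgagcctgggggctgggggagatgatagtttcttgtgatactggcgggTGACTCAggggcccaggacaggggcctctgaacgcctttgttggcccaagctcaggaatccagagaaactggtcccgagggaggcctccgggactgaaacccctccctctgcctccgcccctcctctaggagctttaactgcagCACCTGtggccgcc
Ocln: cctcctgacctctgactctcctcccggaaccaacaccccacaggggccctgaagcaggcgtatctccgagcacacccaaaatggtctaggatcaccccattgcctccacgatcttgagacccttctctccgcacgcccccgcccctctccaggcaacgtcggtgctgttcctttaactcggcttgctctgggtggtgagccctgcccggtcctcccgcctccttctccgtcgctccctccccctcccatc

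The Cgn window held 1 Grainyhead-like match and the Cldn4 window 1 E-box and 2 AP-1 matches. The Cldn1 and Ocln windows shown held none of the 3 motifs. RefSeq windows were matched for 24 of the 45 genes, 32 windows in all. An E-box stood in the windows of 9 of these genes (37.5%), against 19.4% of all 27025 genes with a window. Ocln is among the 9 through another window, which is not shown. The Grainyhead-like motif stood in 2 (8.33%), Cd151 and Cgn, against 1.998% of all genes, and the AP-1 motif in 2 (8.33%), Cldn4 and F11r, against 7.82%. A match is a string of letters and not a bound site, and these counts carry no test.

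The libraries were shallow, with 172011 counts for wild-type, 312600 for Lgals7-/- and 354499 for Tg46. The level of 3 counts, the most that a gene with none is taken to have, was 17.4, 9.11 and 8.95 CPM, that is, counts after scaling to a common library size. In the same order, Lgals7 held 0, 2 and 4 counts, too few to check the labels. Gapdh, a glycolytic enzyme of every cell, held 0, 5 and 4. Whether the table comes from all reads, and whether reads were assigned by strand, is not known here. A count may therefore not follow the gene's own transcript, and exons that overlap a gene on the opposite strand are named for this reason. Chemosensory receptor genes, which are not known for expression in skin, stood at 3.25, 2.56 and 2.37 CPM per kb of exon, and this level is given as the background measured the same way. Of 8 keratinocyte markers, 7 had counts in every library and Ly6d was at 0 in wild-type and Lgals7-/-. Their sum was 101, 365 and 472 counts, 1.90-fold higher (95% interval 1.52 to 2.39) in Lgals7-/- and 2.41-fold higher (1.94 to 3.02) in Tg46 than in wild-type. Hair follicle markers (Tchh, Krt25, Krt35 and Krt71, none at 0) summed to 191, 1321 and 238 counts. Sums were 63, 132 and 146 for fibroblast, 42, 62 and 67 for endothelial, 59, 78 and 96 for leukocyte, 216, 283 and 640 for melanocyte, 31, 45 and 46 for muscle and 7, 28 and 40 for adipocyte markers. Markers within a sum did not all move together. By the call defined below, the melanocyte marker Pmel was higher and Tyrp1 lower in Tg46 than in Lgals7-/-. The fibroblast marker Pdgfra was higher and Col3a1 lower in Lgals7-/- than in wild-type. In bulk tumours, fewer cells of a type and less RNA per cell cannot be told apart.

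Per kb of exon, most junction genes stood above the receptor genes. This held for 38 of 45 for wild-type, 42 for Lgals7-/- and 43 for Tg46, against 62.7%, 79.0% and 81.3% of all genes with a gene model. Their median level was 8.51, 11.5 and 11.7 CPM per kb of exon, against 5.69, 6.78 and 6.60 for all such genes. Dsp, encoding desmoplakin, was the highest of the 45 in Lgals7-/- and Tg46 at 63.8 and 84.6 CPM per kb of exon. Its wild-type level was 32.4, next to Pkp1 (plakophilin-1, which gathers desmosomal cadherins and keratin) at 35.7. At or below the receptor level were Ctnnb1, Dsg3, Dsc3, Pkp3, Itga3, Fermt1 and Cldn4 in wild-type, Ctnnb1, Dsg2 and Cldn1 in Lgals7-/-, and Cldn4 and Ocln in Tg46. The order of the 45 levels was moderately alike between libraries. The Spearman rho was 0.42 between wild-type and Lgals7-/-, 0.51 between wild-type and Tg46 and 0.41 between Lgals7-/- and Tg46. Over all 23697 genes with a gene model it was 0.365, 0.375 and 0.557 in the same order. These are descriptions over genes that share exon length in each pair.

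**Figure D1:**
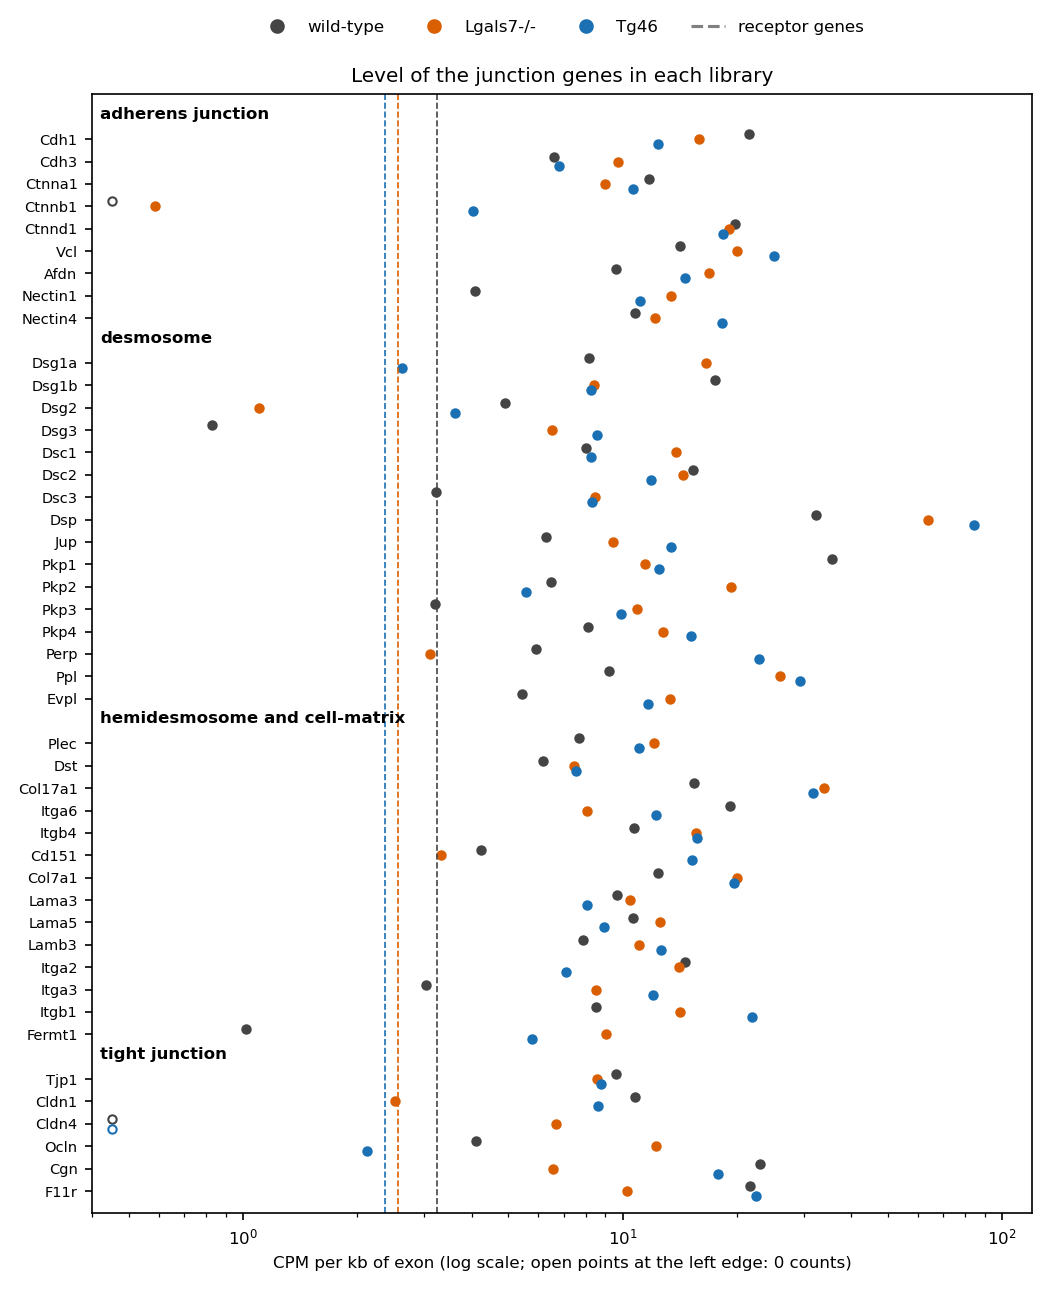
Level of each of the 45 junction genes in CPM per kb of exon (log axis) in the wild-type, Lgals7-/- and Tg46 libraries, with dashed lines at the level of the chemosensory receptor genes in each. Open points at the left edge are libraries with 0 counts. Dsp lies farthest right, at 63.8 in Lgals7-/- and 84.6 in Tg46.

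In Lgals7-/- against wild-type, 6 junction genes were higher and 5 lower. A gene counts as higher or lower here when it had at least 10 counts in 1 of the 3 libraries, the ratio of scaled counts was at least 2-fold and its 95% interval excluded 1. That interval reflects counting error alone. Reads were not tagged as single molecules, as far as the labels say, so the true error may be larger. Of the 45 genes 43 had enough counts, and Ctnnb1 and Cldn4 did not. The higher genes were Nectin1, Dsg3, Pkp2, Ppl, Col17a1 and Fermt1, and the lower ones Dsg2, Pkp1, Itga6, Cldn1 and Cgn. Nectin1, Dsg3, Pkp2 and Fermt1 had under 10 counts in wild-type and met the count minimum through the other libraries only. Dsg2 and Cldn1 met it in Tg46 alone. Among all 12940 genes compared, 13.3% were higher and 13.7% lower, so the shares of junction genes, 6 and 5 of 43, lay near the background. The median log2 ratio of the 43 was 0.48, against 0.10 over all genes compared. Without the count minimum only Ctnnb1 and Cldn4 could be added, and the junction calls were the same. Over all genes that setting gave 1831 higher and 2517 lower. The medians without the minimum were 0.51 over the 45 genes and -0.04 over all identifiers. Many of the identifiers have under 10 counts in every library, and the 0.5 added counts weigh heavily on their ratios. Among the 45 genes only Ctnnb1 and Cldn4 are of this kind, so these 2 medians do not compare like with like. By the 2-fold threshold alone 11 were higher and 7 lower (all genes 25.3% and 18.6%), and with the interval wholly beyond 2-fold the counts were 0 and 0 (1.82% and 3.47%). With 5 counts added to each library Ppl was the one higher gene left, and the 5 lower genes kept their calls. The same addition weighs more in the shallower wild-type library. It pulls ratios of Lgals7-/- and Tg46 to wild-type toward a value below 1. Loss of higher calls and survival of lower ones thus follow in part from the setting. In 1 draw of libraries thinned to the smallest total, Nectin1, Fermt1, Dsg2 and Cldn1 lost theirs. In that draw Ocln was newly called higher, and Dsg1b and F11r lower. The share of all genes was not computed with 5 counts added or after thinning.

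In Tg46 against wild-type, 6 were higher (Dsg3, Dsp, Ppl, Col17a1, Itga3 and Itgb1) and 1 was lower (Pkp1). Over all genes 13.7% were higher and 13.9% lower. Dsg3, Itga3 and Itgb1 had under 10 counts in wild-type and met the count minimum through the other libraries only. The median log2 ratio of the 43 genes was 0.51, against 0.11. Without the count minimum the medians were 0.51 over the 45 genes and -0.01 over all identifiers, with the same limit from identifiers of few counts. The 2-fold threshold alone gave 14 higher and 4 lower (all genes 25.6% and 18.2%), and the interval wholly beyond 2-fold 0 and 0 (2.06% and 3.47%). With 5 counts added Col17a1, Itga3 and Itgb1 were no longer called. In the thinned libraries Itgb1 was not called, and Cdh1 was newly called lower.

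In Tg46 against Lgals7-/-, 4 were higher (Perp, Cd151, Cldn1 and Cgn) and 3 lower (Dsg1a, Pkp2 and Ocln), against 8.43% and 7.73% of all genes. Perp, Cd151 and Cldn1 reached 10 counts in Tg46 alone, and Dsg1a and Ocln in Lgals7-/- alone. The median log2 ratio was 0.01, against -0.03 over all genes. By the 2-fold threshold alone 6 were higher and 3 lower (14.0% and 12.8%). With the interval wholly beyond 2-fold none was higher and Dsg1a was lower (1.14% and 0.665%). All 7 kept their calls with 5 counts added. In the thinned libraries Perp, Cd151 and Cldn1 lost theirs, and F11r was newly called higher. The 3 comparisons share libraries in pairs, so their calls are not independent of each other.

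**Figure D2:**
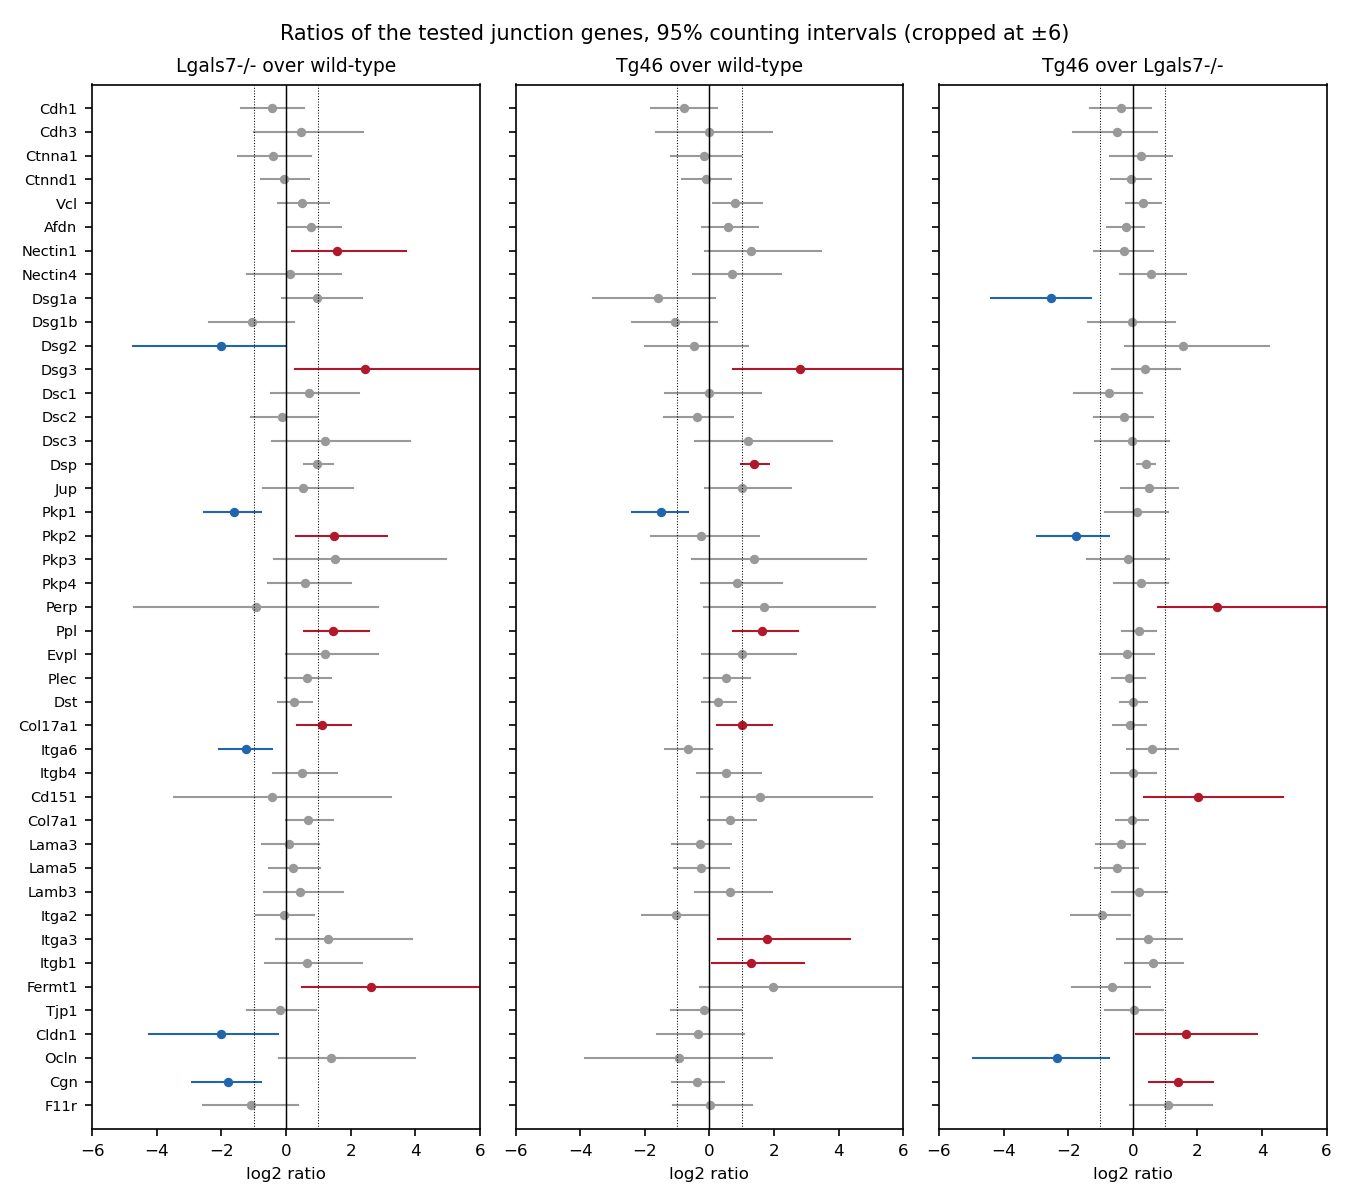
Log2 ratio of scaled counts for the 43 tested junction genes in the 3 comparisons, with 95% counting intervals. Red points are higher, blue points lower and grey points neither, and dotted lines mark 2-fold. Most intervals cross 0, and Dsp has the narrowest.

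Summed over each class, the desmosome genes had the largest ratios to wild-type and the tight junction genes were the one class with ratios below 1. Desmosome counts were 179 for wild-type, 525 for Lgals7-/- and 579 for Tg46. Scaled, they were 1.54-fold higher in Lgals7-/- (95% interval 1.30 to 1.83) and 1.67-fold higher in Tg46 (1.41 to 1.98) than in wild-type. Without Dsp these ratios were 1.35 (1.10 to 1.68) and 1.26 (1.02 to 1.56). Hemidesmosome and cell-matrix counts were 227, 564 and 563, with ratios to wild-type of 1.30 (1.12 to 1.53) in Lgals7-/- and 1.28 (1.09 to 1.50) in Tg46. Adherens junction counts were 108, 255 and 267, with ratios of 1.24 (0.986 to 1.57) and 1.27 (1.02 to 1.61). Whether these last intervals include 1 turned on the scaling: with total counts they were 1.03 to 1.64 and 0.956 to 1.51. Tight junction counts were 59, 69 and 96, which is 1.63-fold lower in Lgals7-/- than in wild-type (1.13 to 2.34). Without Cgn the tight junction ratio in Lgals7-/- was 0.840 with an interval that includes 1 (0.541 to 1.32). In Tg46 the tight junction ratio to wild-type was 0.839 (0.600 to 1.18), an interval that includes 1.

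Between Tg46 and Lgals7-/- no class sum had an interval excluding 1 with TMM scaling of all members. With total counts the hemidesmosome ratio was 0.880 (0.782 to 0.991), and without Dsg1a and Dsg1b, which share windows with each other, the desmosome ratio was 1.14 (1.01 to 1.30). The ratios were 1.03 for adherens junctions, 1.08 for desmosomes, 0.980 for hemidesmosomes and cell-matrix contacts and 1.37 (0.993 to 1.89) for tight junctions. All 45 genes together held 573, 1413 and 1505 counts, with ratios to wild-type of 1.29 (1.17 to 1.43) in Lgals7-/- and 1.35 (1.23 to 1.49) in Tg46. The keratinocyte markers had larger ratios in the same pairs of libraries, 1.90 and 2.41. Their part in the class sums was not tested.

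**Figure D3:**
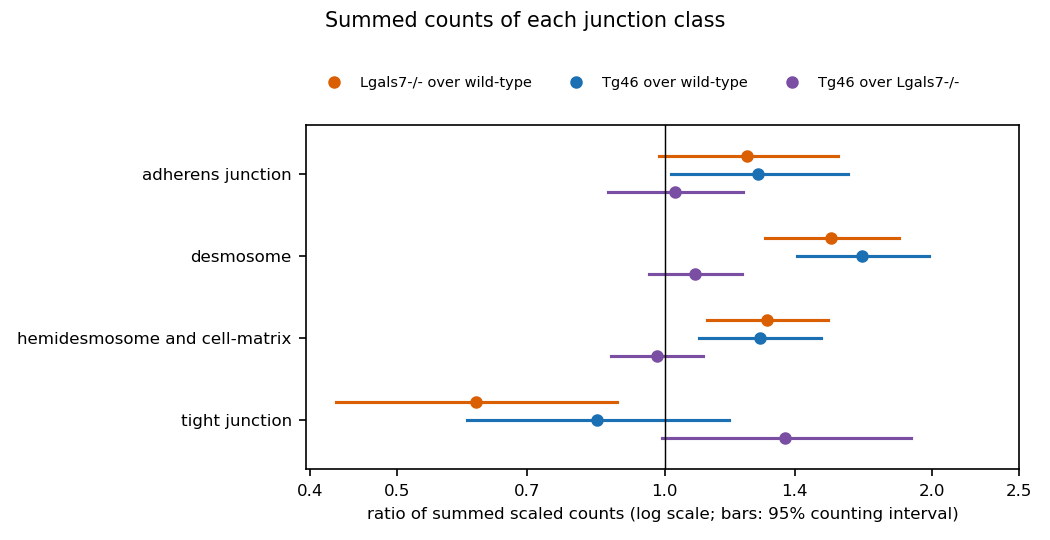
Ratio of summed scaled counts for each junction class in the 3 comparisons (log axis), with 95% counting intervals. Desmosome genes lie at 1.54 and 1.67 against wild-type, and tight junction genes at 0.614 in Lgals7-/- over wild-type.

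Among the adherens junction genes, no tested cadherin or catenin was called in any comparison of the full libraries. In the thinned libraries Cdh1 was called lower in Tg46 than in wild-type. Cdh1 (E-cadherin, chr8:106603351-106670246, plus strand) held 17 counts for wild-type, 24 for Lgals7-/- and 19 for Tg46. Per scaled read its ratio to wild-type was 0.735 in Lgals7-/- (95% interval 0.382 to 1.47) and 0.574 in Tg46 (0.284 to 1.18). It thus had the lowest CPM in Tg46, with an interval of the ratio that includes 1. Cdh3 (P-cadherin, the cadherin of basal and hair matrix cells) held 5, 14 and 10 counts. The cytoplasmic partners Ctnnd1 (p120-catenin, which holds cadherins at the membrane) and Ctnna1 (alpha-catenin, the link to actin) held 25, 46 and 45 and 13, 19 and 23. Ctnnd1 had ratios to wild-type of 0.957 in Lgals7-/- (0.581 to 1.64) and 0.920 in Tg46 (0.557 to 1.58). Of the 50-base windows in the Ctnnd1 transcripts, 56.7% also occur in another gene model, Gm28635, so its counts are uncertain. Ctnnb1 (beta-catenin, which binds the E-cadherin tail and also carries Wnt signals) held 0, 1 and 7 counts. Its exons at the receptor level would hold 2.9, 4.4 and 4.1. It had too few counts to be tested, and the interval of its Tg46 to wild-type ratio starts at 0.743. An exon of Ctnnb1 overlaps Ulk4 on the opposite strand, and an exon of Ctnna1 overlaps Lrrtm2.

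The actin linkers of the adherens junction had the most counts of the class in Lgals7-/- and Tg46, and Ctnnd1 had the most in wild-type. Vcl (vinculin, which reinforces junctions under tension) held 20, 54 and 69 counts, with ratios to wild-type of 1.40 (0.835 to 2.50) in Lgals7-/- and 1.75 (1.07 to 3.09) in Tg46. Afdn (afadin, which couples nectins to actin) held 17, 57 and 50, with ratios of 1.72 (1.01 to 3.23) and 1.49 (0.860 to 2.80). Neither reached 2-fold. Both have opposite-strand exon overlaps, with Ap3m1 for Vcl and Tcte2 for Afdn. Nectin1 (nectin-1, an immunoglobulin-like adhesion receptor) held 4, 25 and 21 counts and was 2.97-fold higher in Lgals7-/- than in wild-type (1.13 to 13.0), or 1.75-fold and not called with 5 counts added. In Tg46 its ratio was 2.46 with an interval that includes 1 (0.913 to 10.8), and it was called under 1 other scaling. Nectin4, a nectin of epidermis and hair follicle, held 7, 15 and 23.

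The desmosomal cadherins went in several directions. Dsg3 (desmoglein-3, the basal-layer desmoglein and the antigen of pemphigus vulgaris) held 1 count for wild-type, 15 for Lgals7-/- and 20 for Tg46. It was 5.42-fold higher in Lgals7-/- (1.21 to 331) and 7.05-fold higher in Tg46 (1.65 to 427) than in wild-type, and the single wild-type count leaves both intervals wide. With 5 counts added to each library the ratios were 1.75, no longer called, and 2.15. Dsg1a (a mouse desmoglein-1 of the upper layers) held 8, 31 and 5 counts. The Lgals7-/- library stood above both others, and Tg46 was 5.83-fold lower than Lgals7-/- (2.43 to 20.8), a ratio of 0.171 that became 0.273 with 5 counts added. Its neighbour Dsg1b held 12, 11 and 11. Dsg1a and Dsg1b share 35.0% and 48.9% of their 50-base windows with other genes, mostly with each other, so reads could be split between them. Dsg2 (desmoglein-2, of simple epithelia and proliferating keratinocytes) held 7, 3 and 10 and was 4.08-fold lower in Lgals7-/- than in wild-type (1.01 to 26.6). It was called under none of the 3 other scalings, and an exon overlaps Gm16090 on the opposite strand.

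No desmocollin was called. Dsc1, of the upper layers, held 7, 23 and 14 counts. Dsc2, the most widespread desmocollin, held 14, 25 and 21. Dsc3, of the basal layers, held 3, 15 and 15, with ratios to wild-type of 2.32 (0.742 to 14.1) and 2.28 (0.729 to 13.9). Of the 7 desmogleins and desmocollins together, the summed ratio to wild-type was 1.24 in Lgals7-/- (0.891 to 1.75) and 0.952 in Tg46 (0.672 to 1.36), and both intervals include 1.

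In the desmosomal plaque, Dsp stood out by its counts. Dsp (chr13:38151294-38198577, plus strand) held 54 counts for wild-type, 203 for Lgals7-/- and 274 for Tg46, the most of any of the 45 genes in every library. It was 2.60-fold higher in Tg46 than in wild-type (1.95 to 3.57). In Lgals7-/- its ratio of 1.96 (1.46 to 2.72) fell just short of 2-fold, and it was called under all 3 other scalings. Between Tg46 and Lgals7-/- the ratio was 1.32 (1.10 to 1.60). An exon of Dsp overlaps Gm10129 on the opposite strand.

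The plakophilins, armadillo proteins of the plaque, did not move as a family. Pkp1 (chr1:135871395-135919207, minus strand) held 31, 19 and 21 counts, the most in the shallowest library. It was 3.08-fold lower in Lgals7-/- (1.70 to 5.82) and 2.84-fold lower in Tg46 (1.59 to 5.24) than in wild-type. Pkp2 (chr16:16213318-16272712, plus strand), the plakophilin of simple epithelia and heart, held 6, 34 and 10. Its Lgals7-/- value was the high one, 2.79-fold above wild-type (1.23 to 8.67) but 1.86-fold and not called with 5 counts added, and Tg46 was 3.35-fold lower than Lgals7-/- (1.67 to 7.86). Pkp3, found through all epidermal layers, held 2, 13 and 12, and Pkp4, shared with adherens junctions, 8, 24 and 29. The Pkp4 ratio to wild-type was 1.51 in Lgals7-/- (0.684 to 4.05) and 1.79 in Tg46 (0.834 to 4.73). Jup (plakoglobin, the plaque protein common to desmosomes and adherens junctions) held 7, 20 and 29. Its ratio to wild-type in Tg46 was 2.03 with an interval that includes 1 (0.916 to 5.78).

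Of the plakins that join desmosomes to the cornified envelope, Ppl was higher in both libraries than in wild-type. Ppl (periplakin, chr16:5086291-5132421, minus strand) held 11, 59 and 68 counts. It was 2.72-fold higher in Lgals7-/- (1.46 to 5.94) and 3.07-fold higher in Tg46 (1.67 to 6.68) than in wild-type. Evpl (envoplakin, its partner) held 6, 28 and 25, with ratios of 2.30 (0.995 to 7.23) and 2.02 (0.860 to 6.40). The first of these intervals just includes 1, and Evpl was called in Lgals7-/- under the 3 other scalings. Perp, a membrane protein of desmosomes and a p63 target in stratified epithelia, held 2, 2 and 15 and was 6.09-fold higher in Tg46 than in Lgals7-/- (1.71 to 66.4), or 2.81-fold with 5 counts added.

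The hemidesmosome core differed in both directions from wild-type. Col17a1 (collagen XVII, a transmembrane collagen of the hemidesmosome, chr19:47646344-47692094, minus strand) held 16, 67 and 64 counts. It was 2.15-fold higher in Lgals7-/- (1.26 to 4.06) and 2.02-fold higher in Tg46 (1.18 to 3.82) than in wild-type, and the second call was lost with total-count scaling. With 5 counts added both were lost, at 1.80 and 1.69. Itga6 (integrin alpha6, chr2:71745616-71858416, plus strand) held 30, 24 and 37 and was 2.37-fold lower in Lgals7-/- than in wild-type (1.35 to 4.26). Its partner Itgb4 (integrin beta4) held 13, 36 and 37, with ratios to wild-type of 1.42 (0.753 to 2.99) and 1.43 (0.762 to 3.01). The 2 chains of this one receptor thus lay on opposite sides of 1 in Lgals7-/-, and the difference between them was not tested. Cd151, a tetraspanin that binds laminin-binding integrins, held 2, 3 and 14 and was 4.07-fold higher in Tg46 than in Lgals7-/- (1.28 to 24.9), or 2.33-fold with 5 counts added. Opposite-strand exons overlap Itgb4 (B230344G16Rik) and Cd151 (Gm10575).

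The long plakins and matrix chains held many counts but small ratios. Dst (dystonin, the BP230 plakin) held 44, 101 and 104 counts, with ratios to wild-type of 1.20 (0.838 to 1.76) and 1.21 (0.849 to 1.78). Plec (plectin) held 24, 72 and 67, with ratios of 1.55 (0.980 to 2.61) and 1.42 (0.891 to 2.40). Per kb of exon Dst stood at 6.19, 7.46 and 7.54 CPM, below the median of the 45 genes, so its high counts go with its length. Col7a1 (collagen VII, the anchoring fibril) held 22, 68 and 68, with ratios of 1.60 (0.990 to 2.76) and 1.57 (0.973 to 2.71). Of the laminin chains, Lama3 and Lamb3 (chains of laminin-332) held 18, 37 and 29 and 9, 24 and 28, and Lama5 held 21, 47 and 34. Exons of Dst overlap Gm26788 and A930005N03Rik on the opposite strand, and an exon of Lama3 overlaps Gm29200.

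Of the integrin genes outside the hemidesmosome, Itga3 and Itgb1 passed the call in Tg46 against wild-type. Itga3 (integrin alpha3, a laminin receptor) held 3, 16 and 23 counts and was 3.46-fold higher in Tg46 than in wild-type (1.19 to 20.6), or 1.80-fold and not called with 5 counts added. Its ratio in Lgals7-/- to wild-type was 2.47 (0.801 to 15.0). Itgb1 (integrin beta1, its partner) held 6, 19 and 30 and was 2.42-fold higher there (1.06 to 7.58). That call was lost with total-count scaling and with 5 counts added (1.64). In Lgals7-/- the Itgb1 ratio was 1.57 (0.638 to 5.08). Tg46 and Lgals7-/- did not differ by the call at either gene, with ratios of 1.40 (0.714 to 2.86) at Itga3 and 1.54 (0.845 to 2.92) at Itgb1. Itga2 (integrin alpha2, a collagen receptor) held 18, 33 and 17. Its ratio in Tg46 was 0.488 to wild-type (0.236 to 1.001) and 0.513 to Lgals7-/- (0.264 to 0.935), and it was called lower in both with total-count scaling. Fermt1 (kindlin-1, an integrin activator of keratinocytes) held 1, 17 and 11 and was 6.12-fold higher in Lgals7-/- than in wild-type (1.40 to 373). With 5 counts added the ratio was 1.92 and the call was lost. The wild-type value of 1 count lies below the 3.2 counts expected for its exons at the receptor level.

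By the order of their CPM values, the tight junction genes split into those lowest and those highest in Lgals7-/-. Against wild-type, Cgn and Cldn1 were called lower there with the main settings and none was called higher. Cgn (chr3:94760069-94786492, minus strand) held 24 counts for wild-type, 13 for Lgals7-/- and 36 for Tg46. It was 3.46-fold lower in Lgals7-/- than in wild-type (1.72 to 7.52) and 2.66-fold higher in Tg46 than in Lgals7-/- (1.41 to 5.59). Wild-type and Tg46 differed 1.30-fold, within counting error (0.738 to 2.23). Of the windows in Cgn transcripts, 17.2% also occur in another gene, mostly BC021767. Its promoter window is the one of the 4 with a Grainyhead-like match.

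Cldn1 (chr16:26356642-26371841, minus strand) followed the same order, with 9, 4 and 14 counts. It was 4.02-fold lower in Lgals7-/- than in wild-type (1.20 to 19.0) and 3.16-fold higher in Tg46 than in Lgals7-/- (1.08 to 14.3), the second call being lost with total-count scaling and 2.07-fold with 5 counts added. F11r (JAM-A, an adhesion receptor of the tight junction) held 10, 9 and 20. Its ratio in Lgals7-/- to wild-type was 0.475 (0.170 to 1.29), and that of Tg46 to Lgals7-/- was 2.12 (0.950 to 5.44). Tjp1 (ZO-1, the scaffold that positions claudins) held 13, 22 and 23, with ratios to wild-type of 0.875 (0.428 to 1.92) and 0.897 (0.443 to 1.96).

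Ocln (chr13:100496507-100552718, minus strand) went the other way, with 3 counts for wild-type, 17 for Lgals7-/- and 3 for Tg46. Tg46 was 5.09-fold lower than Lgals7-/- (1.67 to 30.7), a ratio of 0.196 that became 0.357 with 5 counts added, and the ratio of Lgals7-/- to wild-type was 2.62 (0.860 to 15.8). Cldn4 held 0, 4 and 0 counts. It had too few counts to be tested, and the intervals of its ratios include 1. In 4 of the 6 genes the Tg46 and wild-type CPM values both lay above the Lgals7-/- value, and in Ocln and Cldn4 both lay below it.

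**Figure D4:**
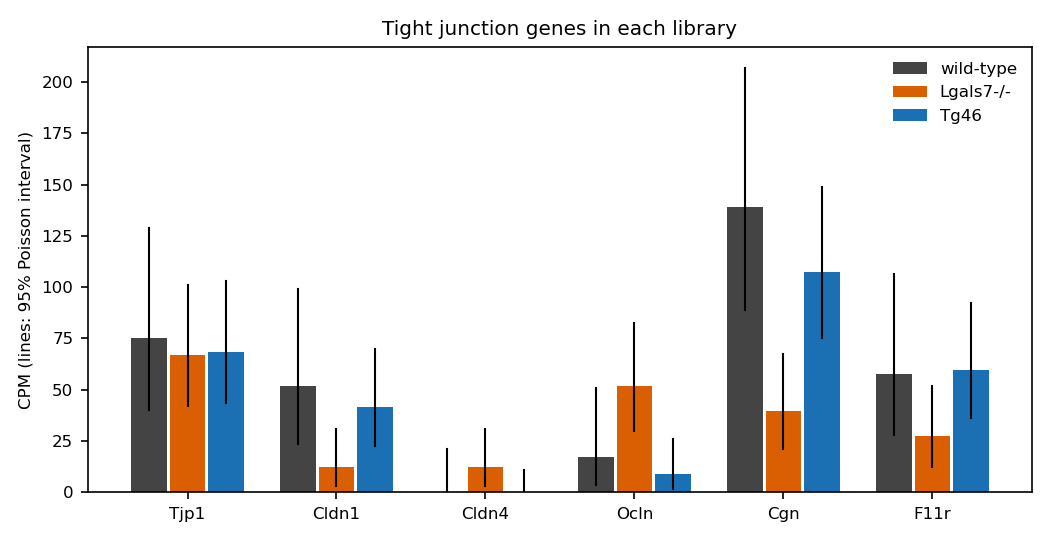
CPM of the 6 tight junction genes in the wild-type, Lgals7-/- and Tg46 libraries. Lines are 95% Poisson intervals of the count in each library. Cgn and Cldn1 are lowest in Lgals7-/- and Ocln and Cldn4 highest there.

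Dsg1a, Pkp2 and Ocln, like 3 of the 4 hair follicle markers, were lower in Tg46 than in Lgals7-/-. Against wild-type, Pkp2 alone of the 3 junction genes was called higher in Lgals7-/- with the main settings. Ocln was called higher there in the thinned libraries, and Dsg1a under 1 other scaling. The 4 markers were 3.63-fold higher in sum in Lgals7-/- than in wild-type (3.12 to 4.25) and 5.65-fold lower in Tg46 than in Lgals7-/- (4.92 to 6.51). Tchh alone gave 160, 1202 and 209 of their counts. Krt35 did not pass the call in Lgals7-/- against wild-type, nor did Krt71 in Tg46 against Lgals7-/-. Their part in the junction values was not tested.

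Other genes of the same structures were called in both directions. Of 106 further junction genes 91 were tested: 11 were higher and 15 lower in Lgals7-/- against wild-type, 10 and 17 in Tg46 against wild-type, and 5 and 5 in Tg46 against Lgals7-/-. As shares of the 91 these are 12.1% and 16.5%, 10.99% and 18.7%, and 5.49% and 5.49%. Over all genes they were 13.3% and 13.7%, 13.7% and 13.9%, and 8.43% and 7.73%. Among 10 desmosome and corneodesmosome genes (8 tested), Spink5 (LEKTI, an inhibitor of the proteases that cut corneodesmosomes) held 14, 85 and 135 counts and was 3.10-fold higher in Lgals7-/- (1.80 to 6.08) and 4.82-fold higher in Tg46 (2.86 to 9.34) than in wild-type. Dsg4 (desmoglein-4, of the hair shaft and upper epidermis) held 49, 36 and 17. It was 2.58-fold lower in Lgals7-/- (1.65 to 4.10) and 5.49-fold lower in Tg46 (3.16 to 10.4) than in wild-type.

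Among further cell-matrix genes, Itgb6 (the beta6 integrin chain of wounded and neoplastic epithelium) held 0, 16 and 11. Taking wild-type at a floor of 3 counts, it was 2.80-fold higher in Lgals7-/- and 1.89-fold higher in Tg46. The intervals of the counts themselves start lower, at 2.02 and 1.29. Lama1, a laminin chain mostly of embryonic basement membranes, held 26, 10 and 25 and was 4.81-fold lower in Lgals7-/- than in wild-type (2.31 to 11.5). Of the 34 genes of this list, all tested, 4 were higher and 6 lower in Lgals7-/-, and 5 were higher and 6 lower in Tg46, against wild-type. The shares of all genes were 13.3% and 13.7%, and 13.7% and 13.9%.

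Of 31 further tight junction genes 21 were tested, with 3 higher and 3 lower in Lgals7-/- (all genes 13.3% and 13.7%) and 2 and 2 in Tg46 (13.7% and 13.9%) against wild-type. Cldn12 (claudin-12) held 14, 4 and 4 counts and was 6.14-fold lower in Lgals7-/- (2.09 to 27.8) and 6.25-fold lower in Tg46 (2.13 to 28.3). Cgnl1 (paracingulin, the relative of cingulin) held 3, 22 and 24 and was 3.37-fold higher (1.16 to 20.1) and 3.61-fold higher (1.25 to 21.4). Cingulin and paracingulin thus differed in opposite directions from wild-type in Lgals7-/-. Of 23 further adherens genes 22 were tested, with 2 higher and 3 lower in Lgals7-/- and 2 and 4 in Tg46, beside the same shares of all genes. Limd1, a LIM protein of the junction, held 18, 4 and 4 and was 7.83-fold lower in Lgals7-/- (2.82 to 34.8) and 7.97-fold lower in Tg46 (2.88 to 35.5).

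Gap junctions, the channels between neighbouring cells, had 8 listed genes and 6 tested. Panx1 (pannexin-1, a related channel protein) held 14, 0 and 5 counts. Taking Lgals7-/- at the floor, it was 8.89-fold lower there than in wild-type, and the interval of the counts themselves starts at 6.32. It was 5.11-fold lower in Tg46 (1.85 to 19.3).

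Transcription factors and splicing factors that set the epithelial state were listed as well, 19 genes with 14 tested. Of the repressors that bind E-boxes, Snai2 (Slug) held 17, 4 and 3 counts and was 7.41-fold lower in Lgals7-/- (2.64 to 33.1) and 9.70-fold lower in Tg46 (3.18 to 58.5) than in wild-type. Zeb1, with an opposite-strand overlap with Gm10125, held 14, 8 and 9 and was 3.25-fold lower (1.31 to 9.17) and 2.96-fold lower (1.22 to 7.90). Zeb2, with exons across Zeb2os, held 22, 32 and 39 and was called in no comparison. Cdh1, a known target of these repressors, had ratios to wild-type of 0.735 and 0.574, with intervals that include 1.

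Among factors that favour epithelial genes, Klf4 (a factor of the differentiated layers) held 3, 7 and 32 counts. It was 4.79-fold higher in Tg46 than in wild-type (1.72 to 28.1) and 4.26-fold higher than in Lgals7-/- (1.95 to 12.1). Esrp1 (an epithelial splicing regulator, with an overlap with Gm26663) held 2, 6 and 19 and was 4.02-fold (1.18 to 43.4) and 2.95-fold (1.19 to 9.52) higher. The Grainyhead-like factors Grhl1, Grhl2 and Grhl3 held 4, 13 and 17, 5, 18 and 27, and 5, 8 and 20 counts. Grhl2, with an overlap with Gm16136, was 2.58-fold higher in Tg46 than in wild-type (1.06 to 9.26), and Grhl3 was 2.37-fold higher in Tg46 than in Lgals7-/- (1.04 to 6.45). Tcf3 (E2A) is an E-box factor and is not counted here among those that favour epithelial genes. It held 1, 29 and 12 counts and was 10.3-fold higher in Lgals7-/- than in wild-type (2.52 to 622). The E-box factors Snai2 and Zeb1 were lower in that comparison, so the called E-box factors went in both directions. In all, 4 of the 14 were higher and 2 lower in Tg46 against wild-type, and 1 higher and 2 lower in Lgals7-/- against wild-type. Over all genes the shares were 13.7% and 13.9%, and 13.3% and 13.7%. Of 7 mesenchymal markers 5 were tested and none was called in Lgals7-/- against wild-type. Cdh11 (cadherin-11, a mesenchymal cadherin) held 9, 16 and 4 and was 4.09-fold lower in Tg46 than in wild-type (1.22 to 19.4).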

How the data were processed

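RNA was extracted from skin papillomas, 3 tumours pooled per genotype, and made into 1 Illumina library each, per the labels' protocols. The authors deposited raw read counts per Entrez gene. The submitters' processing notes name the build mm10. The aligner, the counter and any use of strand: not given in the sources used here.

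Symbols came from RefSeq (23975 of 24028 identifiers). Gene positions, exon lengths (union of exons) and opposite-strand overlaps came from GENCODE M21 on GRCm38 (23697 matched), and promoter windows from RefSeq, of which the 250 bases before the start were searched. Library totals were 172011 (wild-type), 312600 (Lgals7-/-) and 354499 (Tg46). The deposited counts were scaled by TMM factors of 1.00, 1.05 and 0.945 from edgeR 4.0.16 (R 4.3.3), computed on the 12940 genes that reached 10 counts in 1 library or more. Ratios had 0.5 counts added to each library. Each pair of counts gave a 95% Clopper-Pearson interval (exact). Calls needed a 2-fold ratio and an interval that left out 1. Without replicates no quasi-likelihood test could be fitted. Class sums used every gene of the class. Where a library held 0 counts the fold was taken against a floor of 3 counts in that library. The scripts were tested on simulated data.

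The genes, gene lists and call rule were chosen with earlier results of these data known. Every one of the 45 genes is named with its counts. Folds are given for those called in a comparison and for the most counted of each class, and in the other lists for called genes among the 4 with the largest log2 ratios. Some genes of the other lists are not reported here. Ratios of Jup, Evpl, Itgb4, Itga2, Grhl2 and Grhl3 fall outside this rule and were added after their values were seen. Alternatives were total counts, size factors of DESeq2 1.42.0, no filter, fold alone, intervals wholly beyond 2-fold, 5 added counts, thinned libraries, and sums without opposite-strand members or the most counted member. Chosen after seeing the data were TMM over all identifiers, sums less the receptor level, and sums without genes sharing over 30% of windows. The 3 other scalings named in the text are DESeq2 size factors, total counts and TMM over all identifiers. Python 3.11.15, numpy 2.4.6, scipy 1.17.1, pandas 2.3.3 and matplotlib 3.10.9 were used.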

Additional observations from a re-analysis of the deposited data

How the results depend on the processing

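No paired analysis was possible because there is only 1 library of each genotype. The 100 alternative ratios of called junction genes kept their direction. Under the other scalings this was fixed by the call itself, so it is no test of those ratios. A called ratio is at least 2-fold, whereas these scalings moved the median log2 ratio of all tested genes by only -0.16 to 0.15. Calls that were lost and values that moved are given beside each gene or comparison. Of 96 alternative class sums 88 stayed within the reported interval. Of the counts of called junction genes 46 of 60 stayed within 1.5 times, and of the counts over all genes 26 of 36. Class sums with an interval excluding 1 stayed on the same side of 1 in every alternative.

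With the 2-fold threshold alone, junction genes higher in Lgals7-/- over wild-type numbered 11, and in Tg46 over wild-type 14 were higher and 4 lower. Over all genes that threshold gave 3269 and 3307 higher in Lgals7-/- and Tg46 over wild-type, and in Tg46 over Lgals7-/- 1808 higher and 1653 lower. With the interval wholly beyond 2-fold, 0 junction genes were higher and 0 lower in Lgals7-/- over wild-type, 0 and 0 in Tg46 over wild-type, and, in Tg46 over Lgals7-/-, 0 higher and 1 lower. Over all genes it gave 235 and 449, 266 and 449, and 147 and 86. With total counts 2 junction genes were lower in Tg46 over wild-type, against 1961 over all genes. With 5 counts added, 1 junction gene was higher in Lgals7-/- and 3 in Tg46 over wild-type. With thinned libraries 2 were lower in Tg46 over wild-type and 2 higher in Tg46 over Lgals7-/-. Counts over all genes were not computed for added counts or thinning, so these have no background beside them.

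The desmosome sum in Tg46 was 1.29 of wild-type and 0.908 of Lgals7-/- without members that have an opposite-strand exon, and 1.26 and 0.930 without Dsp. Less the receptor level, the sums in Lgals7-/- over wild-type were 1.84 for desmosomes and 1.60 for hemidesmosomes, and in Tg46 over wild-type 2.05 and 1.59. The cause was not tested beyond the construction of each alternative. The median log2 ratio of all tested genes moved by 0.14 in Lgals7-/- and 0.15 in Tg46 over wild-type with TMM over all identifiers, and by -0.16 in Tg46 over Lgals7-/- with total counts. Depth is a limit: 23 of the 45 genes had under 10 counts in wild-type, against 7 in Lgals7-/- and 4 in Tg46.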
